A study of Macaca mulatta with 32 samples.

Results

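Circular RNAs (circRNAs) of 9 genes of amyloid processing, tau and Alzheimer risk were examined in the rhesus macaque brain: APP, BACE1, ADAM10, PICALM, BIN1, SORL1, MAPT, GSK3B and PTK2B. Every circRNA whose host gene carries one of these symbols in the deposited table was taken, which gave 85 circRNAs of 52828, from 8 of the 9 genes among 8047 host gene symbols. No row carried the symbol of SORL1, a sorting receptor of APP. The table covers 32 libraries, 1 for each of 4 pools of animals in each of 8 brain regions. The cortical regions were prefrontal (PFC), posterior cingulate (PCC), temporal (TC), parietal (PC) and occipital (OC). The other regions were CA1 of the hippocampus, the dentate gyrus (DG) and the cerebellar cortex (CB). The pools were females and males of 10 years (10F and 10M) and of 20 years (20F and 20M), and each mixed the RNA of 2 healthy animals, so that the 8 animals entered as 4 pools. All libraries were made from postmortem tissue RNA depleted of polyadenylated and ribosomal RNA and digested with RNase R, which removes linear RNA. Each pool supplied all 8 regions, so a comparison of 16 libraries at 20 years with 16 at 10 years rests on 2 pools against 2.

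A circRNA forms when the end of a downstream exon is spliced back to the start of an upstream exon, and it is counted by reads that cross this back-splice junction. APP is the precursor from which β-secretase (BACE1) and γ-secretase release amyloid-β, whereas ADAM10 is the main neuronal α-secretase and cuts within the amyloid-β stretch. PICALM and BIN1 act in clathrin-mediated endocytosis and membrane bending, MAPT encodes the microtubule-binding protein tau, GSK3B is a tau kinase, and PTK2B is a focal adhesion family tyrosine kinase of synapses. PICALM, BIN1, SORL1 and PTK2B lie at loci associated with late-onset Alzheimer disease in humans. Linear transcripts of these genes were not analysed here.

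The values are TPM as deposited. Within a library every value equals a whole count of junction reads multiplied by 1 factor, with no division by length, and no value stands for fewer than 2 reads, so 0 means that no such value was listed. Libraries held 18813 to 894932 back-splice reads. The shallowest was the CB library of pool 10F (CB_10F), in which 1 read is worth 18.7 TPM. The counts of member calls by age, sex and region in the main tests below were the same without it. Calls of other genes, and calls by alternative tests, are given only with it. The 5 libraries with the largest share of reads left after cleaning (PFC_20F, PCC_20F, PC_10M, CA1_20M and DG_20M) were deeper (median 430956 junction reads) than the remaining 27 (median 166099), and 4 of these 5 were from animals of 20 years. As a check of the regional labels, the summed circRNA level of 4 hosts of cortical excitatory neuron markers was 229 to 367 TPM on average in the cortical regions and 12.1 TPM in CB, and that of 7 cerebellar marker hosts was highest in CB, at 94.4 TPM. Neither of the 2 dentate granule cell markers had a circRNA in the table, nor did the microglial markers CSF1R, CX3CR1, P2RY12 and PTPRC.

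The 85 circRNAs were unevenly spread over the genes. APP (chromosome 3) had 29 circRNAs with 6127 of the 9722 back-splice reads of all members, or 63.0%. PICALM (chromosome 14) had 16 circRNAs and 1752 reads, GSK3B (chromosome 2) 9 and 765, BIN1 (chromosome 13) 4 and 449, MAPT (chromosome 16) 13 and 391, ADAM10 (chromosome 7) 4 and 132, and PTK2B (chromosome 8) 9 and 104. BACE1 (chromosome 14) had a single circRNA, chr14:115694070-115695027, with 2 reads in the TC library of pool 10F. With 29 circRNAs APP was outnumbered by 88 host genes, against a median of 3 circRNAs per host. These are counts of junction reads and not levels per length of transcript.

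Of the 85 circRNAs, 76 were annotated as exonic and 9 as intronic, and 44 were found in 1 library only. The share found in a single library was 51.8%, against 55.1% over the whole table. The expression filter of the study, applied to the recovered reads, kept 26 of the 85 (30.6%), against 32.3% of all circRNAs. The 26 were 8 of APP, 7 of PICALM, 4 of MAPT, 4 of GSK3B, 2 of ADAM10 and 1 of BIN1, and they held 94.3% of the members' reads. None of PTK2B or BACE1 passed. The 59 that did not pass had 2 to 29 reads each and were found in at most 3 libraries. A library held 4 to 18 of the 85, with a median of 12.

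The APP circRNAs were built from a small set of splice sites. They are numbered here by their reads. APP circRNA 1 (chr3:20679928-20708969, plus strand, exonic, spanning 29042 bases of the genome) had 2096 reads in 27 of 32 libraries and 34.2% of the reads of the gene. APP circRNA 2 (chr3:20661926-20687493) had 1281 reads, APP circRNA 3 (chr3:20679928-20687493) 903 and APP circRNA 6 (chr3:20661926-20708969) 427. These 4 are the 4 combinations of 2 start sites with 2 end sites, and together they held 4707 reads, or 76.8% of those of APP.

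The pairing of these sites was uneven when reads were summed over libraries. Of the reads that used the start at 20661926 with either end, 75.0% joined the nearer end at 20687493, whereas of those that used the start at 20679928, 69.9% joined the farther end at 20708969. The second pattern was the more regular one across libraries. The farther end had more reads in 18 of the 29 libraries that used the start at 20679928, and the nearer end in 10. For the start at 20661926 each end led in 13 of 26 libraries, so the share of 75.0% in the sum was not seen in the count of libraries. All 4 combinations were found together in 6 libraries and 3 of them in 14.

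Other APP circRNAs lay apart from these. APP circRNA 4 (chr3:20707867-20708969, spanning 1103 bases) shared the end at 20708969 and had 614 reads in 21 libraries. APP circRNA 5 (chr3:20607791-20610118) had 449 reads in 16 libraries, APP circRNA 7 (chr3:20639585-20639787, spanning 203 bases) 140 in 7, and APP circRNA 8 (chr3:20639585-20687493) 32 in 3. The end at 20708969 was used by 6 circRNAs with 51.5% of the reads of APP. Of the 21 APP circRNAs that did not pass the filter, 15 were found in 1 library. Another 2 APP circRNAs were listed on the minus strand, opposite to the rest, at chr3:20639592-20687445 with 15 reads and chr3:20679966-20708914 with 6 reads. Each of these lies inside the span of a plus-strand circRNA of APP, and each was found in 1 library.

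**Figure D1:**
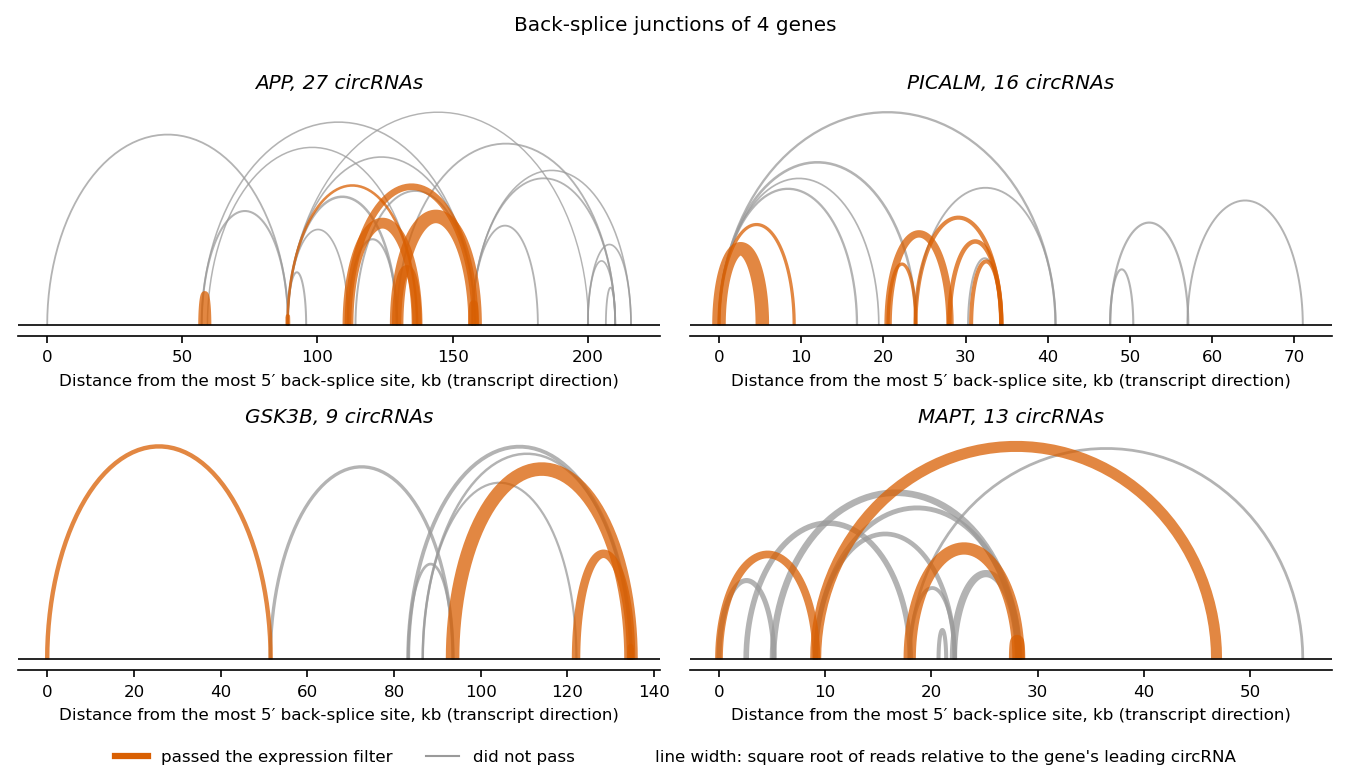
Each arc joins the 2 ends of a circRNA of APP, PICALM, GSK3B or MAPT, placed by distance in kb from the most 5′ back-splice site of the gene in transcript direction. Line width grows with reads and orange arcs passed the expression filter. The 27 plus-strand APP circRNAs are drawn, and their thick arcs meet at the same few ends.

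In the remaining genes 1 junction usually dominated. PICALM circRNA 1 (chr14:84357599-84362875, minus strand, exonic) had 1104 reads in 27 libraries, which was 63.0% of the gene, and it was the leading PICALM circRNA in 25 of the 31 libraries with PICALM reads. BIN1 circRNA 1 (chr13:133513558-133515288, minus strand) had 424 reads in 21 libraries, or 94.4% of the gene, and led in 21 of 23. GSK3B circRNA 1 (chr2:39896873-39938034, minus strand) had 453 reads in 20 libraries, or 59.2%, and led in 18 of 24.

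GSK3B and PICALM also reused their ends. The GSK3B site at 39896873 was part of 5 circRNAs with 92.2% of the reads of the gene, and the PICALM site at 84362875 was part of 6 circRNAs with 67.4%. On the minus strand the first is the downstream end of the circle and the second the upstream end.

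MAPT, ADAM10 and PTK2B were more divided. MAPT circRNA 1 (chr16:56622993-56623258, spanning 266 bases) had 105 reads in 5 libraries, which was 26.9% of the gene, and it led in 2 of the 18 libraries with MAPT reads, in which 11 different circRNAs led. The end at 56623258 was nevertheless shared by 5 MAPT circRNAs with 63.2% of its reads. ADAM10 circRNA 1 (chr7:36955681-36962054, exonic) had 65 reads in 8 of the 13 libraries with ADAM10 reads and led in all 8, and an intronic circRNA of the gene (chr7:37051681-37052569) 63 in 4. The leading PTK2B circRNA, chr8:27600515-27602925, had 25 reads, all in DG_20M.

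**Figure D2:**
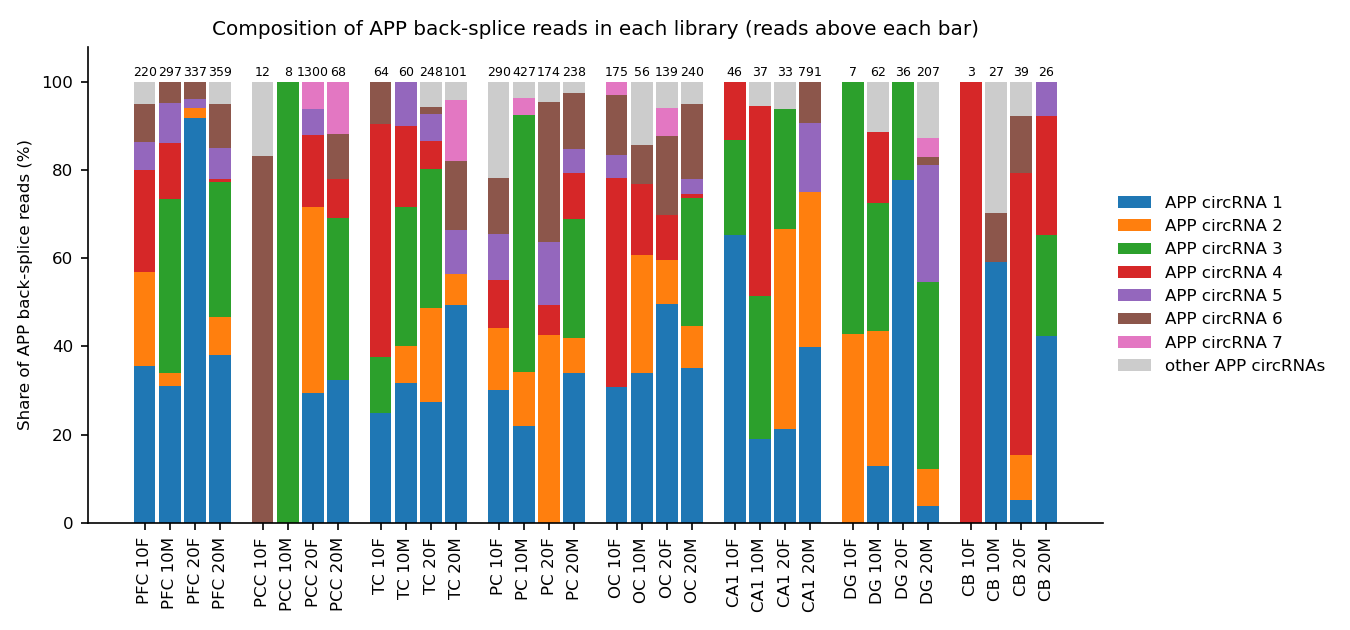
Each bar is a library, and its segments are the shares (%) of the APP back-splice reads held by APP circRNAs 1 to 7 and by all others, with the reads of APP printed above. APP circRNA 1 leads in 14 of 32 libraries, and the bar of CB_10F rests on 3 reads of 1 circRNA.

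APP was the member found most widely, in all 32 libraries, with 1 to 11 of its circRNAs per library and a median of 5. Its summed level over all its circRNAs was 157 ± 97.8 TPM (SD, n = 32), from 16.9 TPM in PCC_10F to 397 TPM in PCC_20F. PICALM was found in 31 libraries (61.4 ± 37.7 TPM), with its highest sum in TC_10M at 154 TPM and none in DG_10F. GSK3B was found in 24 libraries (18.1 ± 16.1 TPM), BIN1 in 23 (18.0 ± 20.9 TPM), MAPT in 18 (11.2 ± 15.03 TPM) and ADAM10 in 13 (6.42 ± 11.7 TPM).

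The first question was whether these levels differ between brain regions. The lowest mean APP sum was in CB. The sums were 56.2 TPM in CB_10F, 40.6 in CB_10M, 42.4 in CB_20F and 57.2 in CB_20M, or 49.1 ± 8.81 TPM (SD, n = 4), against a lowest value of 16.9, a median of 159 and a highest of 397 TPM in the 28 libraries of the other regions. The ranges overlapped through PCC_10F, PCC_10M and DG_10F, which had 7 to 12 APP reads each (CB_10F had 3), while no CB library reached the median of the others. In limma on log2 values of summed TPM with a pseudocount of 2.455, with age and sex as covariates, APP in CB was lower by a log2 difference of -1.49 (SE 0.58), with an adjusted p = 0.126 over 3834 host genes, which missed the threshold of 0.05. In this comparison 6.78% of host genes were called. APP in CB was also not called in 12 alternative limma fits, among them the fit on reads divided by size factors. It passed in 1 alternative, with every library rescaled to the same total (log2 difference -1.75, adjusted p = 0.0429). A planned count model on the recovered reads was run but left out, because the table holds no declared counts. It called APP lower in CB, but its values are not reported here, so this call is not used as support. In bulk tissue fewer cells of a type and less RNA per cell cannot be told apart, and the cortical excitatory marker hosts were also low in CB, as given above. The summed level of 6 general neuronal marker hosts was instead highest in CB (418 TPM on average, against 105 to 314 TPM in the other regions). The 4 astrocyte marker hosts were at 0 in all CB libraries. Their sum was low elsewhere too, with means of 5.23 TPM in PCC to 23.4 TPM in PC, and every region but PC held a library at 0. The part of these cell types in the APP values was not tested.

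GSK3B was at 0 TPM in CB_10F and CB_20M, 7.51 in CB_10M and 2.17 in CB_20F, against 20.3 ± 15.98 TPM (SD, n = 28) elsewhere. The CB values lay at the low end of the others, whose range of 0 to 51.8 TPM covers them. The log2 difference was -1.90 (SE 0.81) with an adjusted p = 0.173 (limma), and it was not called. PICALM, by contrast, had 46.2 to 112 TPM in CB (73.4 ± 28.1), within its range in the other regions.

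In DG the PICALM sum was 0 TPM in DG_10F, 54.5 in DG_10M, 14.4 in DG_20F and 30.8 in DG_20M, against 66.6 ± 36.6 TPM (SD, n = 28) and a range of 3.89 to 154 elsewhere. All 4 DG libraries were below the median of 62.8 TPM of the others, and the ranges overlapped. The log2 difference was -1.80 (SE 0.64) with an adjusted p = 0.193 (limma), and 1.36% of host genes were called in DG. Over all host genes the median log2 difference in DG was -0.45. The DG libraries held 43202 to 273137 back-splice reads.

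None of the 7 genes that could be tested, those above 0 in at least 8 libraries, passed limma's adjusted threshold in any of the 8 regions, where 8.09% of all host genes did in at least 1. BACE1 was not tested. Some regional means stood above the rest but were not called, namely PICALM in TC (103 ± 48.8 TPM, SD, n = 4), MAPT in PCC (25.3 ± 24.6 TPM) and GSK3B in CA1 (29.8 ± 21.2 TPM).

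**Figure D3:**
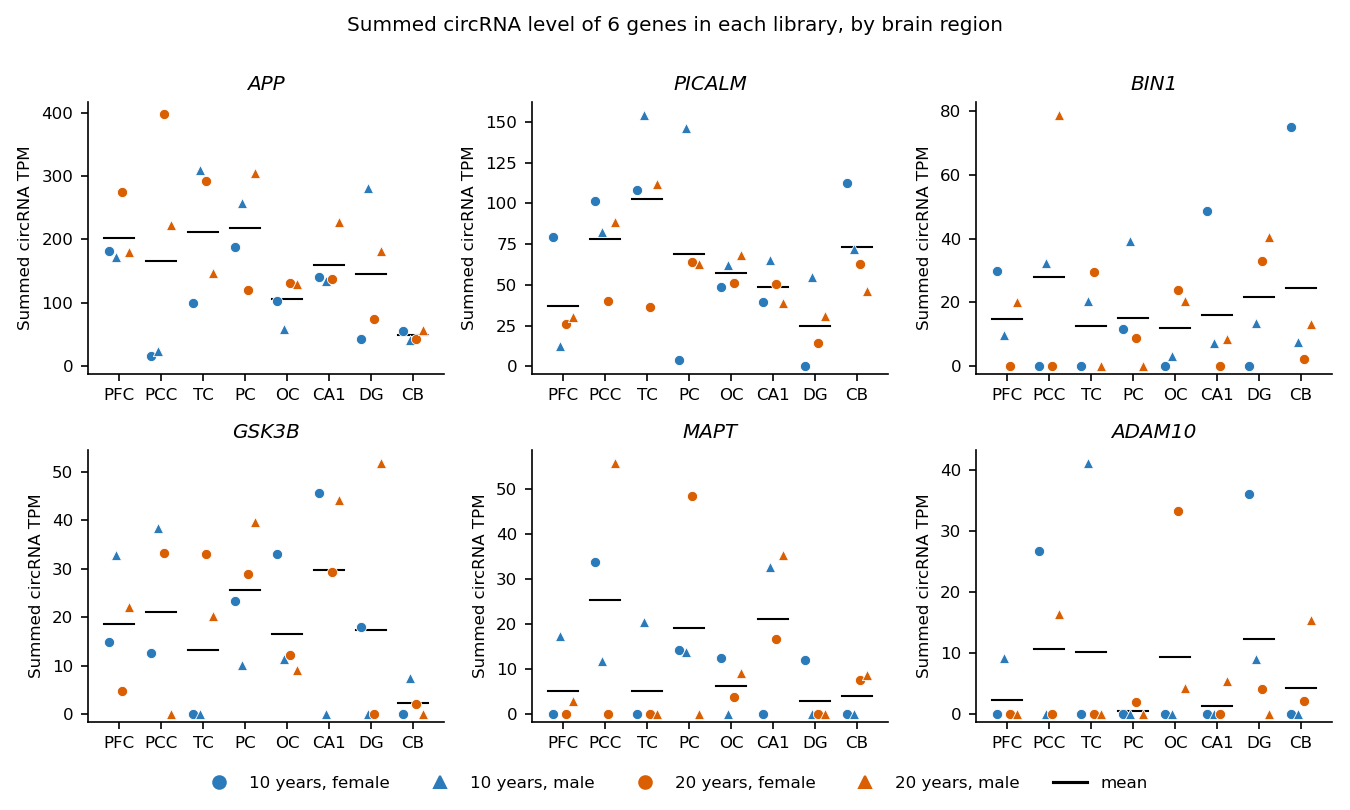
Points are libraries, coloured by age and shaped by sex, with the summed circRNA TPM of APP, PICALM, BIN1, GSK3B, MAPT or ADAM10 on the y axis, the 8 regions on the x axis and lines for the means of 4 libraries. The CB libraries lie between 40.6 and 57.2 TPM for APP, and the spread within most other regions is wide.

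As a share of all back-splice reads the 8 genes were low in CB. They held 0.0538% to 0.0691% of the reads of each CB library. In the other 28 libraries they held 0.0532% to 0.206%, with a median of 0.133%, and only DG_10F lay at or below the highest CB value. This share is a description, with no test. In CB, PICALM gave more of these reads (133) than APP (95). APP held 0.0153% to 0.0226% of the reads of each CB library, and elsewhere only PCC_10F, PCC_10M and DG_10F were at or below 0.0226%. PICALM held 0.0182% to 0.0329% in CB, inside its range of 0% to 0.0579% elsewhere. The low share was thus not common to all 8 genes. Among the 26 circRNAs that passed the filter, 21 had a lower mean in CB than elsewhere. This count was 20 in OC, 20 in DG, 19 in PFC and 10 to 16 in the remaining regions. The median log2 difference in CB was -0.18 over the 26 and -0.14 over the 17050 (limma). The exact test called none of the 26 in CB, where it called 3.42% of the 17050. Another test tried, with unequal variances, called 6 of them as lower in CB, namely APP circRNAs 1, 2, 3, 5 and 6 and GSK3B circRNA 1. The share of the 17050 that this test calls in CB was not computed, so these 6 have no background to be read against.

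**Figure D4:**
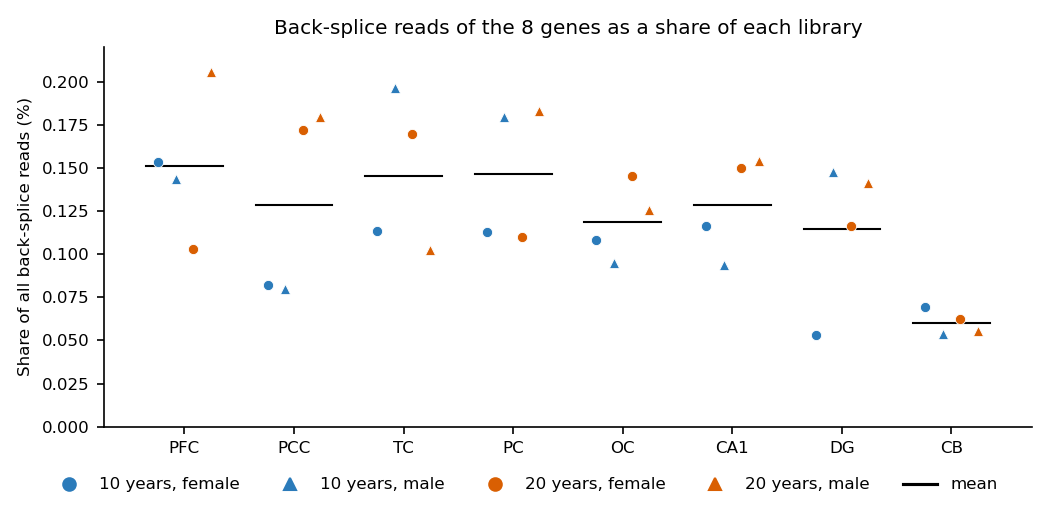
Back-splice reads of the 8 genes as a percentage of all back-splice reads, with 1 point per library by region and lines for the means. The 4 CB libraries lie between 0.0538% and 0.0691%, and the median of the other 28 is 0.133%.

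The make-up of the APP reads in CB also differed in the sums. APP circRNA 4, the short one, held 35 of 95 APP reads in CB, which is 36.8% (95% exact binomial interval 27.2% to 47.4%), and 579 of 6032 elsewhere, or 9.60% (8.87% to 10.4%). These intervals cover counting error only. It was present in CB_10F (3 reads), CB_20F (25 reads) and CB_20M (7 reads) and absent from CB_10M, so 1 library gave most of the 35 reads. Without CB_20F the share was 10 of 56 reads, or 17.9% (8.91% to 30.4%), which is near that of OC at 17.7%, and without CB_10M it was 51.5%. APP circRNA 2 held 4 of the 95 reads in CB (4.21%, interval 1.16% to 10.4%). Elsewhere its share ran from 7.75% in PFC and 8.52% in OC to 39.5% in PCC, where all 548 of its reads came from PCC_20F. The level of APP circRNA 4 itself was 24.7 ± 23.8 TPM in CB (n = 4) and 19.1 ± 22.0 TPM in the other 28 libraries (exact permutation test, two-sided, p = 0.649).

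Single circRNAs were then compared between each region and the other 7 by an exact two-sided permutation test over the 35960 choices of 4 libraries, with a threshold of 0.01. PICALM circRNA 1 was higher in TC, with 80.0 TPM in TC_10F, 118 in TC_10M, 20.1 in TC_20F and 87.0 in TC_20M. Of the 4, 3 were above every library outside TC except PCC_10F, at 88.6 TPM, and TC_20F was below the median of 34.4 TPM outside TC. The means were 76.3 ± 41.1 (SD, n = 4) and 31.3 ± 21.8 TPM (n = 28), with an exact p = 0.00298. APP circRNA 6 was higher in PC, with 23.98 TPM in PC_10F, 0 in PC_10M, 38.0 in PC_20F and 38.3 in PC_20M. PC_10F, PC_20F and PC_20M were above the highest value outside PC, 23.7 TPM, and PC_10M had none. The means were 25.1 ± 18.0 (n = 4) and 8.09 ± 8.78 TPM (n = 28), with an exact p = 0.00526.

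These were the 2 of 26 circRNAs called in any region, where 8.68% of the 17050 circRNAs were called in at least 1 region, 1.04% as higher in TC and 1.28% as higher in PC. Neither passed a Benjamini-Hochberg adjustment over the 17050 (adjusted p = 0.584 and 0.531). Both calls were lost on reads divided by size factors (exact p = 0.0110 and 0.0159), on log2 values (exact p = 0.0664 and 0.0897), in limma with pool as a replicate block (p = 0.0562 and 0.0218), and without pool 10F or 20M. The block also gave APP circRNA 6 as lower in DG (log2 difference -1.57). The TC call was also lost without 10M and the PC call without 20F.

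The second question was whether the circRNAs change with age. Of the 26 circRNAs, 12 had a higher mean at 20 years and 14 a lower one, and 2 passed the methods' t-test (two-sided, unpaired, threshold 0.05), 1 in each direction. Over all 17050 circRNAs 2.97% passed, 1.52% as higher and 1.45% as lower at 20 years. The smallest Benjamini-Hochberg adjusted p of the 26 was 0.698, and none of the 17050 passed after adjustment.

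APP circRNA 6 was higher at 20 years. It was found in 12 of 16 libraries at 20 years, with a lowest value of 0, a median of 14.4 and a highest of 38.3 TPM, and in 8 of 16 at 10 years, with a lowest of 0, a median of 2.26 and a highest of 23.98 TPM. The 2 highest libraries were PC_20F and PC_20M, and the groups overlapped widely. The means were 14.5 ± 13.2 and 5.95 ± 7.56 TPM (SD, n = 16 each, p = 0.0324). By pool they were 18.7 TPM in 20M, 10.3 in 20F, 9.67 in 10F and 2.22 in 10M, so 20F and 10F were close. The call was lost without pool 10M (difference 4.81 TPM) or 20M (4.36 TPM), without any 1 of TC, PC, OC and CA1 (6.02 to 8.44 TPM), and on log2 values.

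PICALM circRNA 2 (chr14:84334767-84342300, minus strand, exonic, 286 reads) was lower at 20 years. It was found in 8 of 16 libraries at 20 years, with a lowest value of 0, a median of 1.43 and a highest of 21.7 TPM, and in 12 of 16 at 10 years, with a lowest of 0, a median of 14.6 and a highest of 56.2 TPM. Its highest value was that of CB_10F and stands for 3 reads. The means were 6.29 ± 7.99 and 18.4 ± 16.7 TPM (SD, n = 16 each, p = 0.0136), and without CB_10F the difference was -9.59 TPM with p = 0.0233. Both pools of 20 years (3.86 TPM in 20F and 8.72 in 20M) were below both of 10 years (15.6 in 10F and 21.2 in 10M). The call was lost without pool 10M (difference -9.27 TPM) or 20F (-9.68 TPM), and without the 5 libraries of highest clean share (-9.92 TPM).

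The leading circRNAs did not pass. APP circRNA 1 had 68.1 ± 60.7 TPM at 20 years, with a median of 67.3 and a highest value of 253 in PFC_20F, and 36.4 ± 31.3 TPM at 10 years, with a median of 28.7 and a highest of 97.8 (SD, n = 16 each, p = 0.0734). In PFC_20F it held 310 of the 337 APP reads. PICALM circRNA 1 had 35.6 ± 22.3 TPM at 20 years and 38.3 ± 34.2 TPM at 10 years (n = 16 each, p = 0.794). GSK3B circRNA 1 had 12.4 ± 13.03 and 10.1 ± 12.7 TPM (n = 16 each, p = 0.617), and BIN1 circRNA 1 had 16.5 ± 21.3 and 17.8 ± 21.2 TPM (n = 16 each, p = 0.861).

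For the summed levels limma called none of the 7 genes by age, and none of the 3834 host genes (0%), of which 257 had an unadjusted p under 0.05. None of the 257 was a member. The APP sum was 183 ± 98.3 TPM at 20 years and 132 ± 93.5 TPM at 10 years (SD, n = 16), with a log2 difference of 0.66 (SE 0.38) and an adjusted p = 0.819. The log2 differences of the other 6 genes for age lay between -0.53 (PTK2B) and 0.43 (GSK3B). The interaction of age and sex was called for none of the 7, against 3 of all host genes (0.0782%).

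**Figure D5:**
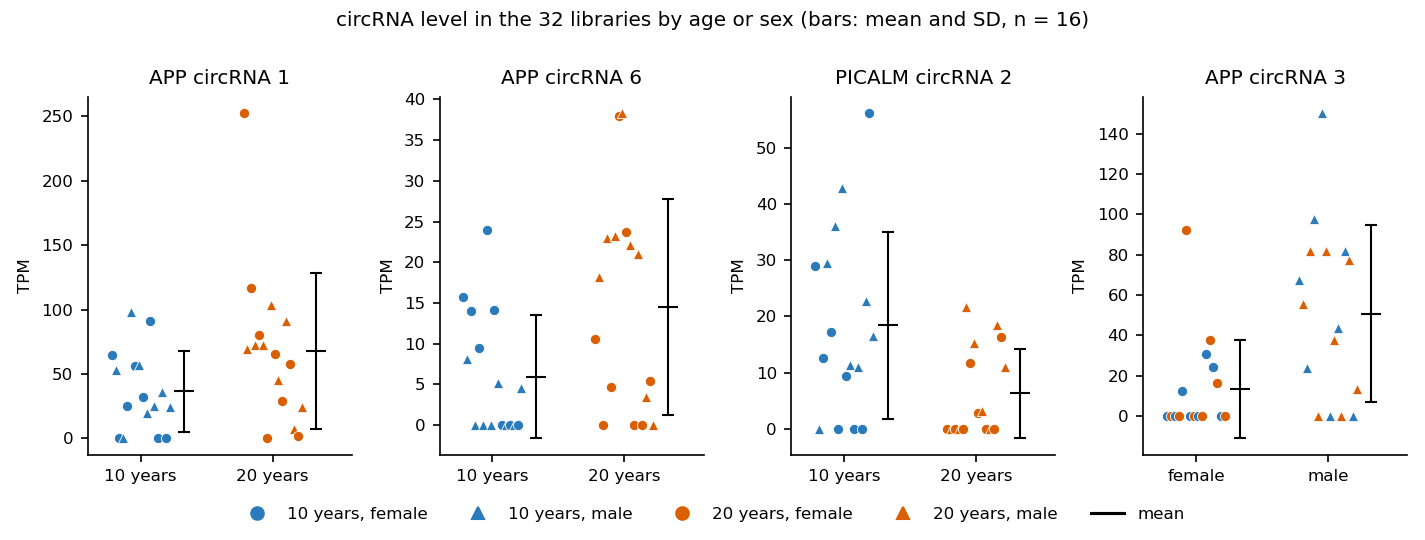
TPM of APP circRNAs 1 and 6 and PICALM circRNA 2 at 10 and 20 years, and of APP circRNA 3 in females and males, with 1 point per library and the mean ± SD of 16 libraries beside each group. The groups overlap in all 4 panels, and many libraries are at 0.

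The third question was whether levels differ between the sexes. APP circRNA 3 was higher in males, and it was the only 1 of the 26 to pass the methods' t-test, where 2.94% of all circRNAs passed and 1.78% as higher in males. It was found in 12 of 16 male libraries, with a lowest value of 0, a median of 49.5 and a highest of 150 TPM, and in 6 of 16 female libraries, with a lowest of 0, a median of 0 and a highest of 92.0 TPM. The high female library was TC_20F, and 4 male libraries had none. The means were 50.8 ± 43.7 and 13.3 ± 24.5 TPM (SD, n = 16 each, p = 0.00556, Benjamini-Hochberg adjusted p = 0.704). Both male pools (58.1 TPM in 10M and 43.4 in 20M) were above both female pools (8.39 in 10F and 18.3 in 20F). The difference of 37.4 TPM was 32.5 TPM without pool 10F, where the call was lost.

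None of the other 7 APP circRNAs that passed the filter was called by sex, and differences between circRNAs were not tested. APP circRNA 1, with the same start site, had 49.9 ± 32.3 TPM in males and 54.6 ± 64.3 TPM in females (n = 16 each, p = 0.794), and APP circRNA 2, with the same end site, had 20.1 ± 26.6 and 28.2 ± 43.6 TPM (n = 16 each, p = 0.533). The APP sum was 170 ± 93.3 TPM in males and 144 ± 103 TPM in females (limma adjusted p = 0.926). ADAM10 circRNA 1 was found in 6 male and 2 female libraries, with 5.34 ± 10.7 and 0.265 ± 0.724 TPM (n = 16 each, p = 0.0683). The limma fit on summed levels called none of the 7 genes by sex, and 0% of host genes. An unadjusted p under 0.05 was reached by 273 host genes, none of them a member.

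Other genes of the same pathways were read from 3 lists. Of 32 genes of amyloid processing and trafficking, 29 had a circRNA and 15 could be tested. In this list ADAM9, a metalloproteinase that can cut APP, was higher in CB, at 123 ± 37.6 TPM (SD, n = 4, range 88.7 to 160) against 15.5 ± 12.5 TPM (n = 28, at most 42.7) elsewhere, with no overlap and a log2 difference of 3.26 (limma adjusted p = 0.00205). SORCS1, a sorting receptor of the same family as SORL1, was at 0 in all 4 DG libraries against 27.6 ± 31.8 TPM elsewhere (n = 28, 0 to 168 TPM, limma adjusted p = 0.0129). Of the 52 host genes called in DG, 44 were lower there, and 1 read was worth 0.878 to 6.02 TPM in the DG libraries. Of 35 tau kinases, phosphatases and microtubule partners, 31 had a circRNA and 18 could be tested. TBCE, a tubulin folding cofactor, was higher in CB, at 130 ± 63.4 TPM (range 90.2 to 225) against 33.4 ± 19.8 TPM elsewhere (at most 76.7), with a log2 difference of 2.06 (limma adjusted p = 0.0354). Of 34 further Alzheimer risk genes, 17 had a circRNA and 9 could be tested, and none was called. The calls in CB were 1 of 15 and 1 of 18 tested genes, where 6.78% of all host genes were called, and the call in DG was 1 of 15, where 1.36% were. No gene of the 3 lists was called by age or by sex. In CB the median log2 difference was 0.12 over the 15 amyloid genes, -0.04 over the 18 tau genes and -0.49 over the 9 risk genes, against 0.05 over all host genes. In DG these medians were -0.96, -0.20 and 0.08, against -0.45 over all host genes.

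Over the 32 libraries the host genes whose summed level followed that of APP most closely were HTR4 (Spearman's rho 0.72), KATNAL1 (0.69) and ARNT2 (0.68), among 1444 hosts found in at least 24 libraries. For PICALM they were PAPD4 (0.68), DCTN4 (0.68) and IMPACT (0.62), and for GSK3B H2AFY2 (0.62), MAPK14 (0.60) and NELL1 (0.59). These coefficients are the highest for each gene, over libraries that share pools and differ in depth, and they are given as a description. Among the members themselves rho was -0.14 between APP and PICALM, 0.21 between APP and GSK3B, and -0.40 between PICALM and GSK3B.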

How the data were processed

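Per the study's methods, the authors trimmed reads with cutadapt, aligned them with BWA and called back-splice junctions with CIRI2. The genome build is not given in the sources used here, so positions are those of the table. The values deposited by the authors are a signal that they call TPM, per circRNA and library, whose divisor is not stated. All 197702 values above 0 were whole reads (100% within 0.05 read), and the expression filter of the study, applied to these reads, kept 17050 circRNAs. Age and sex were compared by the methods' t-test, and regions by an exact permutation test. Host gene sums above 0 in at least 8 libraries were tested with limma (version 3.58.1) on log2(TPM + 2.455), with Benjamini-Hochberg adjustment. Named were, per gene, the circRNA with most reads and those called, and further circRNAs were named after their values were seen. Members, lists and alternatives were chosen with earlier results of these data known. Libraries of 1 pool come from the same animals. After region, age and sex were fitted, their deviations correlated by -0.04 on average. Age and sex take up most of the difference between 4 pools, so this value does not show that the libraries are independent. The p-values treat libraries as independent, whereas 2 pools against 2 allow no exact p below 0.333. Scripts were tested on simulated data.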

Additional observations from a re-analysis of the deposited data

Results flagged for a closer look

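Summed levels of the genes were examined in 40 groups of 4 libraries of a region with at least 3 values above 0, and 4 groups held a library far from the others, where chance gives about 1 in 20. APP had 228 TPM in CA1_20M, far above the other CA1 libraries, and 275 TPM in PFC_20F, far above the other PFC libraries. Both libraries are among the 5 of highest clean share. BIN1 had 74.9 TPM in CB_10F, which stands for 4 reads. GSK3B had 33.1 TPM in OC_10F, above the other OC libraries. The cause was not tested.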

How the results depend on the processing

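The number of members called by age, 2, was 1 on log2 values and 4 with every library rescaled to the same total, and it ranged from 0 to 4 when 1 pool or region was left out. The number called by sex, 1, was 2 on log2 values, in the permutation test, in limma, after rescaling and with size factors, and ranged from 1 to 4 with 1 pool or region left out. The number of regional calls, 2, was 9 by Welch's test, 0 on log2 values, 1 in limma with pool as a replicate block and 1 with size factors, and ranged from 0 to 1 with 1 pool left out. These were not always the named calls. The 9 by Welch's test were all lower, 6 of them in CB, and included neither named call. The share of all circRNAs that Welch's test calls was not computed. The call with size factors was APP circRNA 1 in PFC. Rescaling kept the TC call, lost the PC call and added APP circRNA 1 in PFC. Gene sums by region gave 0 calls, but 1 after rescaling (APP in CB). The leading PTK2B circRNA held 0% without the 5 libraries of highest clean share, and 0% to 32.9% with 1 pool left out. Without these 5 libraries ADAM10 circRNA 1 (40.7%) and MAPT circRNA 1 (21.2%) also no longer led, and the ADAM10 share ran from 31.2% to 66.7% with 1 pool left out. No direction reversed. Pairing libraries by region and the other factor as a replicate block left 2 calls by age and 1 by sex, and a pool block left 0 gene sums by region. Leaving out CB_10F was chosen after seeing the data and kept the counts of the main tests. Planned count models on the recovered reads were run but left out, and 1 of them called APP lower in CB. The interaction could not be estimated with a pool left out. The causes were not tested. Most members had few reads per library, so values near 0 stand for few reads or none, and the part of depth in them was not tested.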
